A study of Homo sapiens with 12 samples.

Results

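The 10 genes described here are IL6, STC1 and 8 relatives and partners of these factors, among the 58288 genes listed in the deposited table. IL6 and STC1 were chosen by their measured values, the rise after irradiation in these same libraries. LIF, IL11, IL6ST, SOCS3, STC2, GDF15, CSF2 and CSF3 were added to them by function, with earlier results of these data known. Of the 10, 8 passed the filter on low values, which asked for 1 TPM (transcripts per 1000000) or more in at least 3 of the 12 libraries, as did 15973 of all genes. CSF2 and CSF3 did not.

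IL6, LIF and IL11 are secreted cytokines of a family that signals through a shared receptor chain, gp130, encoded by IL6ST. Ligand binding joins gp130 to a more specific receptor, activates JAK kinases and STAT3, and induces SOCS3, an intracellular protein that shuts the same signal off. STC1 and STC2 are stanniocalcins, secreted glycoproteins that respond to hypoxia and other stress. GDF15 is a secreted member of the TGF-beta superfamily known as a cytokine of cell stress, and CSF2 (GM-CSF) and CSF3 (G-CSF) are growth factors of myeloid cells. In epithelial tumours several of these factors belong to the secretory program of cells that stop dividing after DNA damage.

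RNA-Seq was done in FaDu, an established line of human head and neck squamous cell carcinoma. The WT cells carried Cas9 with a non-targeting gRNA and the KO cells a gRNA against STING, the cytosolic DNA pathway adaptor listed as TMEM173. Each line was left unirradiated (0 Gy) or received 2 Gy a day for 4 days, and each of the 4 groups had 3 libraries. The KO is a single line from 1 gRNA, the interval from the last fraction to RNA collection is not given in the sources used here, and nothing says that the libraries came from separate cultures. The p-values therefore measure the spread between these libraries, which may be technical.

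Library quality and identity were checked briefly. TMEM173 ranged from 21.2 to 26.1 TPM in the WT libraries and from 5.18 to 7.41 TPM in the KO libraries, with no overlap. Within groups, Pearson's r of log2(TPM + 1) across genes lay between 0.983 and 0.987, and 14860 to 15292 genes reached 1 TPM in a library. All 9 epithelial markers were at 1 TPM or more, with a summed level of 9298 to 11194 TPM. Of 7 fibroblast markers only COL1A1 reached 1 TPM, with LUM at 0 in every library. Of 6 leukocyte markers, CD68 (14.7 to 31.1 TPM), CD14 (2.62 to 4.35) and ITGAM (0.462 to 1.41) reached 1 TPM, whereas PTPRC, CD3E and LYZ did not exceed 0.289 TPM. Of 4 endothelial markers, CDH5 (8.51 to 19.8 TPM) and VWF (2.60 to 4.49) reached it, whereas PECAM1 and KDR stayed under 0.1 TPM.

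RefSeq promoter entries existed for 7 of the 10 genes. The stretches before the start are shown for IL6, which was higher after irradiation in both lines, IL11, which rose in WT and did not pass the threshold in KO, and SOCS3, which fell in both. They are on GRCh38.p14 and read 5′ to 3′ on the strand of the gene, with matches to 5 motifs (both strands) in capitals. The motifs in capitals, searched over the 250 bases before the start, were NF-kB (GGGNNTTTC), AP-1 (TGANTCA), the cyclic AMP response element (TGACGTCA), STAT (TTCNNNGAA) and C/EBP (TTNNGNAA). The hypoxia response element (ACGTG) was searched as well and had no match in the stretches shown. These stretches were chr7:22726950-22727146 (plus strand) for IL6, chr19:55370464-55370713 (minus strand) for IL11 and chr17:78360926-78361175 (minus strand) for SOCS3. For IL6 the 53 bases nearest the start were left out because GENCODE annotates them as exon, and the bases shown lie within the IL6 gene of that annotation, outside its exons.
IL6: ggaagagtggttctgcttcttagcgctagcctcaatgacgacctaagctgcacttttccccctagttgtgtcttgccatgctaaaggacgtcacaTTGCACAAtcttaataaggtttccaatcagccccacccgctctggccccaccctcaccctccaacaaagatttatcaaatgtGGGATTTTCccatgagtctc
IL11: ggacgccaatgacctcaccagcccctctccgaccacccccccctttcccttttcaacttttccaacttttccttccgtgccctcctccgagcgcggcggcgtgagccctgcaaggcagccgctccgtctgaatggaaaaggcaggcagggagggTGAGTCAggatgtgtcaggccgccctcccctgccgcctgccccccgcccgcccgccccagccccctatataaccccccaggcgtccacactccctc
SOCS3: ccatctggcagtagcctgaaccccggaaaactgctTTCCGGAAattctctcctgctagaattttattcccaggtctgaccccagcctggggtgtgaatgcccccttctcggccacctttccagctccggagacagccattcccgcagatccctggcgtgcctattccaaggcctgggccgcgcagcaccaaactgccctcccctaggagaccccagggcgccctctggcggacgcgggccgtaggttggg

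The IL6 stretch held the NF-kB letters GGGATTTTC at positions -73 to -65 from the start and the C/EBP letters TTGCACAA at -155 to -148. NF-kB letters were present in 4.16% of the 35116 promoter entries and C/EBP letters in 33.2%. IL11 held the AP-1 letters TGAGTCA at -96 to -90, as 6.57% of entries did. SOCS3 held C/EBP letters at -215 to -208, TTCCGGAA, and the STAT letters were not in this window. SOCS3 had another RefSeq start. The 250 bases before it held none of the motifs and are not shown, because annotated exons reach into them. A match here is a description of the sequence and not a measured binding site.

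IL6 was low in unirradiated cells and highest in irradiated WT cells. Unirradiated WT libraries had 1.54, 1.79 and 2.00 TPM, and irradiated ones 7.03, 8.21 and 7.74 TPM. In KO cells it was 0.881, 2.38 and 1.46 without radiation and 3.03, 3.19 and 2.97 after it. Irradiated libraries lay above unirradiated ones in each line, and the irradiated KO libraries lay between the other irradiated libraries and all unirradiated ones. The ratio of means after irradiation was 4.31 in WT and 1.95 in KO, a gain of 5.88 TPM against 1.49 TPM. As these are the values that chose IL6, they carry no test.

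Between the lines, IL6 was 2.5-fold lower in irradiated KO than in irradiated WT cells by the ratio of mean TPM. The log2 fold change on the log2(TPM + 1) scale, which understates changes of low genes, was -1.09 (SE 0.18). Without radiation the lines overlapped (log2 fold change -0.15, SE 0.18). IL6 was chosen for its values in these libraries, so the difference between the lines is also given with no test. IL6 (ENSG00000136244.11) spans chr7:22725884-22732002 on GRCh38 in GENCODE 29, and the genes overlapping it on the opposite strand, STEAP1B and AC073072.1, did not exceed 0.228 TPM.

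**Figure D1:**
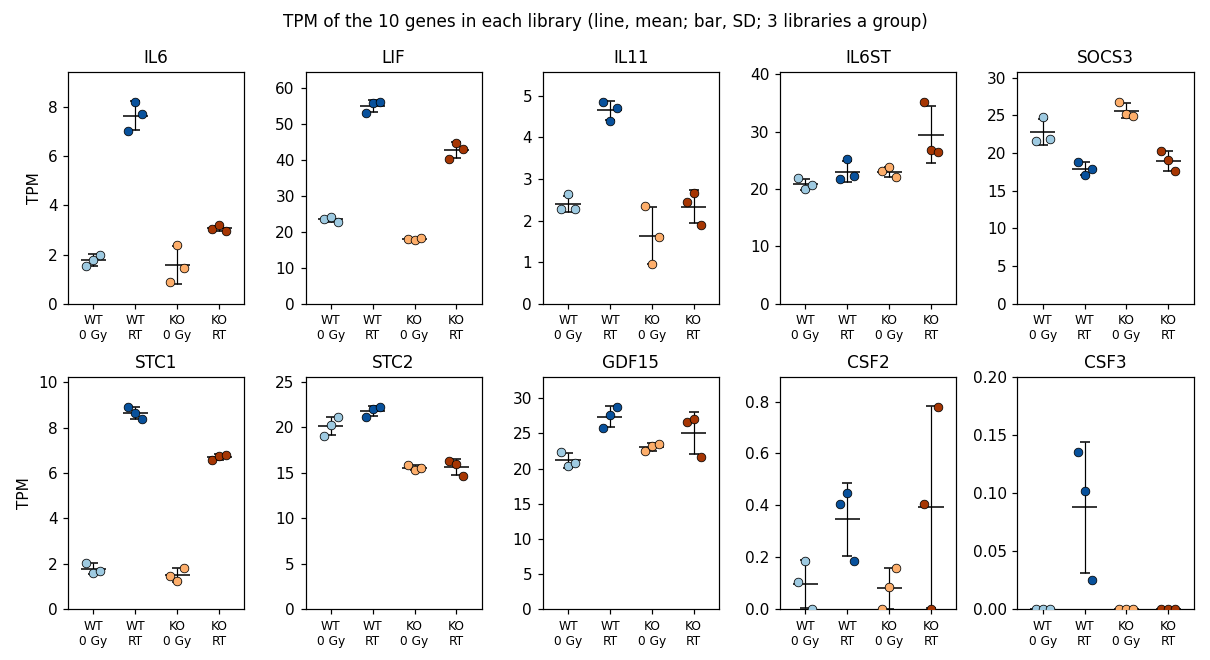
TPM (y axis, from 0) of the 10 genes in the 12 libraries, by group (x axis: WT and STING KO, 0 Gy or irradiated, RT). Points are libraries, lines are means and bars are SD of 3 libraries. IL6 in irradiated KO libraries (2.97 to 3.19) lies below irradiated WT (7.03 to 8.21), whereas the STC1 groups differ mainly by irradiation.

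LIF, which signals through LIFR and gp130, rose with radiation in both lines and was lower in KO with or without it. In WT its TPM was 23.6, 24.2 and 22.8 unirradiated and 53.3, 56.0 and 56.2 irradiated. In KO it was 18.1, 17.8 and 18.3 unirradiated and 40.4, 44.7 and 43.2 irradiated. None of the 4 groups overlapped. The rise was 2.34-fold in WT (log2 fold change 1.19, SE 0.051, limma adjusted p = 2.5e-06) and 2.37-fold in KO (1.20, SE 0.051, limma adjusted p = 2.4e-06). The difference between these rises was 0.0023 on the log2 scale (SE 0.073, limma adjusted p = 1). KO cells had 1.3-fold less LIF without radiation (log2 fold change -0.36, limma adjusted p = 0.0048) and 1.29-fold less after it (-0.36, limma adjusted p = 0.0035). Fitting only the 6 unirradiated libraries gave an adjusted p of 0.064 for the former, the only alternative of 20 to end it. LIF spans chr22:30240447-30246851, where AC004264.1 on the opposite strand reached 8.26 TPM. The strand setting of the counting is not given in the sources used here, and overlap of exons was not examined. Whether reads of either gene were counted for the other is therefore not known.

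IL11, a cytokine of the same family that uses IL11RA, was expressed at a level like that of IL6 and was highest in irradiated WT cells. Its TPM was 2.29, 2.63 and 2.28 in unirradiated WT and 4.85, 4.40 and 4.70 in irradiated WT libraries. In KO it was 2.35, 0.958 and 1.62 unirradiated and 2.44, 2.67 and 1.89 irradiated. Irradiated WT libraries lay above all others, and the remaining groups overlapped with each other. IL11 rose 1.94-fold in WT (log2 fold change 0.73, SE 0.17, limma adjusted p = 0.046) and was 1.99-fold lower in irradiated KO than irradiated WT cells (-0.77, SE 0.17, limma adjusted p = 0.038). The radiation effect in KO was 0.36 (SE 0.17, limma adjusted p = 0.30), and the difference between the lines' radiation effects did not pass (-0.37, SE 0.24, limma adjusted p = 0.85). Both IL11 calls were near the threshold. The rise in WT was kept under 5 of 19 alternatives and the KO difference under 6 of 19. Of the 12 fits that left out 1 library, only those without unirradiated KO library 1 or 2 kept either call, and the others gave adjusted p up to 0.14 and 0.13. IL11 (ENSG00000095752.6) spans chr19:55364389-55370463.

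SOCS3, the feedback inhibitor, fell with radiation in both lines. In WT its TPM was 21.6, 24.7 and 21.9 unirradiated and 18.8, 17.1 and 17.8 irradiated. In KO it was 26.7, 25.2 and 24.9 unirradiated and 20.3, 19.1 and 17.6 irradiated. Irradiated and unirradiated libraries did not overlap in either line. The log2 fold change was -0.42 in KO (SE 0.072, limma adjusted p = 0.013) and -0.33 in WT (SE 0.072, limma adjusted p = 0.036). The call in KO was kept under 18 of 20 alternatives and was lost without the unirradiated KO library 1 (adjusted p = 0.051) or with only the 6 libraries compared (0.064). The call in WT was kept under 8 of 20, and of the fits that left out 1 library only those without unirradiated KO library 1 or irradiated KO library 1 or 3 kept it (adjusted p up to 0.12 in the others). KO and WT did not differ past the threshold, unirradiated (0.17, limma adjusted p = 0.33) or irradiated (0.077, limma adjusted p = 0.64). SOCS3 spans chr17:78356778-78360077, and the RefSeq start used above lies upstream of this GENCODE 29 span.

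IL6ST, the gp130 chain itself, did not pass the threshold in any comparison. Its TPM was 21.9, 20.0 and 20.6 in unirradiated WT, 21.7, 25.2 and 22.2 in irradiated WT, 23.1, 23.8 and 22.1 in unirradiated KO, and 35.1, 26.7 and 26.5 in irradiated KO libraries. The irradiated KO libraries lay above all the others, and library 1 stood apart from its group. The log2 fold change of irradiated KO cells was 0.33 against irradiated WT (SE 0.10, limma adjusted p = 0.12) and 0.33 against unirradiated KO (SE 0.10, limma adjusted p = 0.11). IL6ST spans chr5:55935095-55994993, with the pseudogene AC016596.1 on the opposite strand at up to 9.99 TPM. As for LIF, whether reads of either gene were counted for the other is not known.

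Of the 7 receptors of the gp130 family listed besides IL6ST, 5 passed the filter on low values. By TPM, which is per length, OSMR, the oncostatin M receptor, was the most abundant at 73.0 to 88.0 TPM, followed by LIFR at 21.9 to 27.6 TPM. IL6R ranged from 6.41 to 11.2 TPM and IL11RA from 2.42 to 4.50 TPM. IL27RA ranged from 13.9 to 20.3 TPM, whereas CNTFR was listed at 0 in 11 of 12 libraries and IL31RA did not exceed 0.140 TPM. Of the 5 tested, 0 passed the threshold in limma in any of the 5 comparisons. At an unadjusted p under 0.05, 2 were lower in KO without radiation and 2 after it, 1 was higher in irradiated KO cells and 0 differed by radiation in WT. Of all 15973 tested genes, 1.73% were called for KO against WT unirradiated, 3.59% irradiated, and 3.74% and 3.69% for radiation in WT and KO. Those with an unadjusted p under 0.05 numbered 2292, 2855, 2910 and 2896, in the same order. For the difference between the lines' radiation effects, 0.0188% were called and 1056 had such a p. At such shares, 0 calls in a list of this size does not set it apart. IL6R in irradiated against unirradiated KO cells differed by 0.42 on the log2 scale (SE 0.12, limma adjusted p = 0.084). OSMR in KO against WT had -0.14 with and without radiation (limma adjusted p = 0.13 and 0.18).

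JAK1 stood at 113 to 128 TPM, JAK2 at 12 to 15 TPM, TYK2 at 42.9 to 51.4 TPM and STAT3 at 78.0 to 93.4 TPM. None of these 4 passed the threshold in the 5 comparisons. Of all 12 JAK and STAT genes and partners listed, 0 passed with radiation in limma in either line. Of all tested genes, 3.74% passed in WT and 3.69% in KO. At an unadjusted p under 0.05 there were 4 of the 12 in WT and 2 in KO, against 2910 and 2896 of all 15973. Of the 14 inhibitors listed besides SOCS3, such as other SOCS and PIAS proteins and phosphatases, 0 passed in limma in any comparison, and at most 3 had an unadjusted p under 0.05. The shares over all tested genes are those given above for the receptors.

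**Figure D2:**
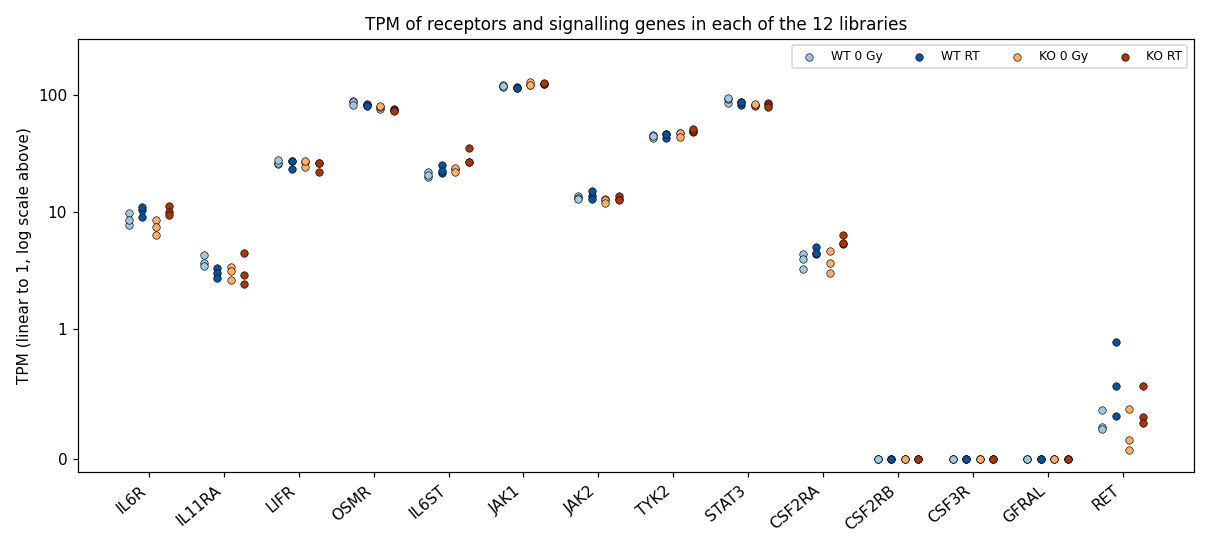
TPM (y axis, linear to 1 and log scale above) of receptors and signalling genes (x axis) in the 12 libraries, coloured by group. Each point is a library. JAK1, STAT3 and OSMR stand highest, and CSF2RB, CSF3R and GFRAL are at 0 in all 12 libraries.

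Genes listed as STAT3 targets moved in both directions. Of 18 tested besides SOCS3, 2 rose and 0 fell in WT, and 2 rose and 2 fell in KO. Of all tested genes, 2.24% were called higher and 1.50% lower in WT, and 2.00% and 1.70% in KO. The median log2 fold changes of the 18 were 0.025 and -0.025, against 0.017 and 0.019 over all tested genes. ICAM1, an adhesion molecule, rose by 0.38 in WT (limma adjusted p = 0.0018) and 0.35 in KO (limma adjusted p = 0.0035), and TIMP1, a metalloproteinase inhibitor, by 0.49 (limma adjusted p = 0.0014) and 0.28 (limma adjusted p = 0.026). JUNB, an AP-1 subunit, fell by 0.38 in KO (limma adjusted p = 0.0022), and its change in WT was -0.14 (limma adjusted p = 0.14).

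The other gp130 cytokines did not join IL6, LIF and IL11 past the threshold. CLCF1 ranged from 15.7 to 21.0 TPM and CTF1 from 12 to 16.3 TPM. Of the 3 tested in this family besides the ligands above (CLCF1, CTF1 and CNTF), 0 passed in limma in any comparison, and OSM did not exceed 0.0692 TPM. At an unadjusted p under 0.05 there was at most 1 in a comparison, such as CLCF1 in irradiated KO against WT (log2 fold change -0.19, limma adjusted p = 0.14). In that comparison 3.59% of all 15973 tested genes were called and 2855 had an unadjusted p under 0.05. Shares for the other comparisons are those given above for the receptors.

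STC1 was higher in every irradiated library than in any unirradiated one. Its TPM was 2.05, 1.60 and 1.68 in unirradiated WT and 8.89, 8.64 and 8.40 in irradiated WT libraries. In KO it was 1.47, 1.22 and 1.81 unirradiated and 6.55, 6.72 and 6.79 irradiated. The unirradiated groups of the 2 lines overlapped, and irradiated KO libraries lay below irradiated WT ones. The ratio of means was 4.87 in WT and 4.46 in KO, and the log2 fold changes were 1.80 and 1.63 (SE 0.1), given without a test because they chose the gene. The log2 fold change of KO against WT was -0.33 after irradiation and -0.15 without it (SE 0.1), also with no test. For IL6 the radiation effect in KO minus that in WT was -0.94 (SE 0.25) and for STC1 -0.17 (SE 0.14), again as descriptions.

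STC1 ranked 10th and IL6 14th among 15973 genes by log2 fold change in irradiated WT cells. Some genes ranked above them had a wide spread between libraries, such as AC087190.4 at 3.23. Among the 2350 genes whose irradiated WT libraries all lay above the unirradiated ones, AC087190.4 was still 1st. STC1 was 4th and IL6 7th there, and MYADM came next at 1.64. The ranks of IL6 and STC1 restate the values that chose them. In KO, STC1 was 8th of 15973, LIF 24th and IL6 213th, with MXRA7 after IL6 at 0.70. In WT, LIF was 31st and IL11 212th.

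STC2, the paralog of STC1, was lower in KO cells and did not pass the threshold for radiation. Its TPM was 19.1, 20.2 and 21.1 in unirradiated WT and 21.1, 22.0 and 22.2 in irradiated WT libraries. In KO it was 15.9, 15.3 and 15.5 unirradiated and 16.3, 16.0 and 14.6 irradiated. Every KO library lay below every WT library. The difference was -0.35 on the log2 scale without radiation (SE 0.059, limma adjusted p = 0.012) and -0.45 after it (SE 0.059, limma adjusted p = 0.0018). The latter was kept under 20 of 20 alternatives. The former was kept under 15 of 20 and was lost with only the 6 libraries compared (adjusted p = 0.095) and without unirradiated WT library 2 or 3 or KO library 2 or 3 (up to 0.058). The radiation effect was 0.11 in WT (limma adjusted p = 0.37) and 0.0061 in KO (limma adjusted p = 0.97). STC2 spans chr5:173314713-173329503.

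GDF15 was near 20 to 29 TPM throughout and passed the threshold in 1 comparison. Its TPM was 22.3, 20.3 and 20.8 in unirradiated WT, 25.8, 27.6 and 28.7 in irradiated WT, 22.5, 23.2 and 23.5 in unirradiated KO, and 26.6, 27.1 and 21.7 in irradiated KO libraries. Irradiated WT libraries lay above unirradiated WT ones, while the KO groups overlapped because of the irradiated library 3. The rise in WT was 1.29-fold (log2 fold change 0.36, SE 0.083, limma adjusted p = 0.044). This call was kept under 4 of 20 alternatives, and of the fits that left out 1 library only those without irradiated KO library 2 or 3 kept it (adjusted p up to 0.13 in the others). In KO the effect was 0.11 (SE 0.083, limma adjusted p = 0.53), and the difference between lines was -0.24 (SE 0.12, limma adjusted p = 0.76). GFRAL, the GDF15 receptor of the hindbrain, was listed at 0 in every library, and its co-receptor RET ranged from 0.0741 to 0.901 TPM. GDF15 spans chr19:18374731-18389176 and contains MIR3189 on the same strand.

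CSF2 and CSF3 were close to 0. CSF2 was 0.104, 0.184 and 0 TPM in unirradiated WT, 0.407, 0.447 and 0.186 in irradiated WT, 0, 0.0831 and 0.158 in unirradiated KO, and 0.406, 0 and 0.778 in irradiated KO libraries. The WT groups did not overlap and the KO groups did, with an exact two-sided permutation p of 0.1 in WT and 0.4 in KO, where 0.1 is the smallest p that 3 against 3 libraries allow. CSF3 was 0.135, 0.102 and 0.0255 TPM in irradiated WT libraries and was listed at 0 in the other 9. At these levels the number of reads is not known, and no fold is given. CSF2RA ranged from 3.00 to 6.31 TPM, whereas CSF2RB, the signalling chain shared by the receptors for GM-CSF and related cytokines, and CSF3R, the G-CSF receptor, were listed at 0 in all 12 libraries. Of 12 colony-stimulating factor and receptor genes listed, CSF1 and CSF2RA were tested and 0 passed in limma, with 1 at an unadjusted p under 0.05 in WT and 2 in KO for radiation. Over all tested genes, 3.74% passed in WT and 3.69% in KO, and 2910 and 2896 of 15973 had an unadjusted p under 0.05.

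The members were added with earlier results of these data known, so their counts beside the shares of all genes are descriptions. Counted together, 4 of the 6 members open to a radiation test and passing the filter were called in WT, where 3.74% of all tested genes were called. LIF, IL11 and GDF15 were higher, where 2.24% of all genes were, and SOCS3 was lower, where 1.50% were. In KO, 2 of 6 were called, LIF higher and SOCS3 lower, where 3.69% of all genes were called, 2.00% higher and 1.70% lower. Irradiated and unirradiated libraries did not overlap for 5 of these 6 genes in WT and 3 of 6 in KO, with shares of 24.8% and 24.3% over all tested genes. The median log2 fold change of the 6 was 0.25 in WT and 0.22 in KO. The WT count was 1 without any of the 6 WT libraries or unirradiated KO library 3, and 2 without unirradiated KO library 2 or irradiated KO library 1 or 2. The KO count was 1 without unirradiated KO library 1. For the difference between the lines' radiation effects, 0 of 6 passed in limma, where 0.0188% of all genes (3 genes) did and 1056 had an unadjusted p under 0.05, among them 0 of the 6.

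Between the lines, IL6 and STC1 were again left out of the count. Without radiation 2 of the other 6 were called, LIF and STC2, both lower in KO, where 1.73% of all genes were called, 1.26% lower and 0.463% higher. After irradiation 3 of 6 were called, IL11, LIF and STC2, all lower in KO, where 3.59% of all genes were called, 2.66% lower and 0.927% higher. The groups did not overlap for 5 of these 6 genes unirradiated and 4 of 6 irradiated, against 20.6% and 24.1% of all genes. The unirradiated count was 1 without unirradiated library 2 or 3 of either line. In the irradiated comparison, IL11 kept its call in 2 of the 12 fits that left out 1 library, and LIF and STC2 in all 12. The comparisons share libraries, so these counts are not independent of each other. As with the radiation counts, they are descriptions of members added with earlier results known. Checked against a label of radiation-induced secreted factors, SOCS3 is intracellular and fell, IL6ST is a receptor, STC2 did not pass the threshold with radiation, and CSF2 and CSF3 were too low for the limma fit.

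**Figure D3:**
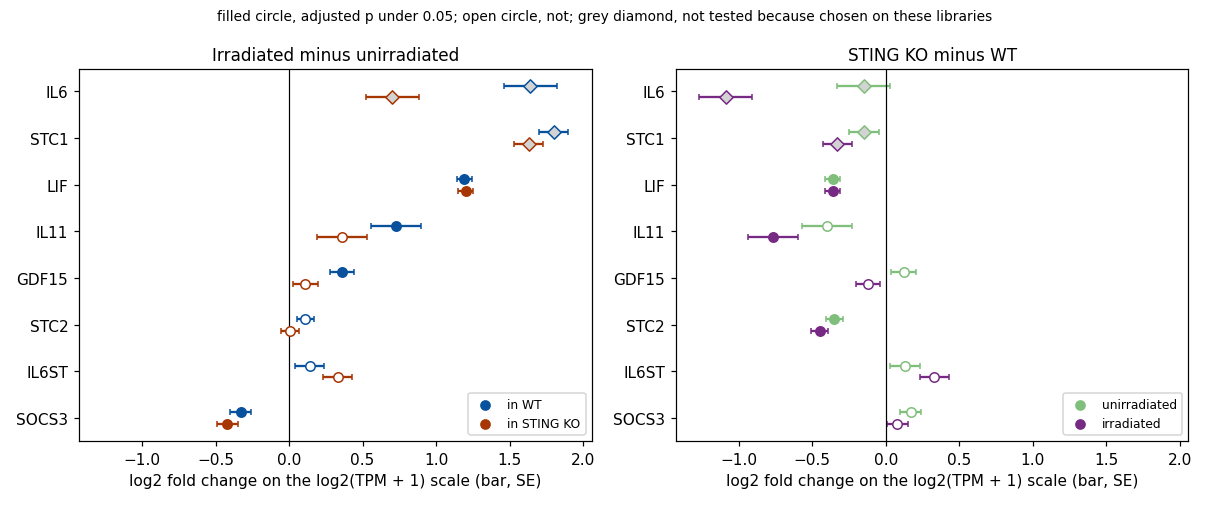
Log2 fold change on the log2(TPM + 1) scale (x axis; bars, SE of the limma fit) of the 8 genes passing the filter (y axis), for irradiation in each line (left) and KO against WT (right). Filled circles passed adjusted p 0.05, open circles did not and grey diamonds (IL6 and STC1) were not tested. LIF changes by 1.19 and 1.20 with irradiation in the 2 lines, and IL11, LIF and STC2 pass the threshold as lower in irradiated KO cells.

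Over the 12 libraries, the 5 tested genes most like IL6 by Pearson's r of log2(TPM + 1) were CSRNP1 (0.961), ATP6V1B2 (0.951), SPRY2 (0.950), TNFAIP3 (0.946) and IRS2 (0.946). For STC1 they were IER3 (0.983), CYTH4 (0.982), DUSP5 (0.982), LIF (0.981) and ICAM1 (0.979). The pattern of SOCS3 ran opposite, with r of -0.83 to IL6 and -0.92 to STC1. The points share the 4 groups, so these correlations are descriptions.

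A wider list of 45 factors secreted by senescent cells held many genes that were higher after irradiation. It was compiled from general knowledge, with earlier results of these data known. Of 30 tested besides the genes described above, 17 rose and 0 fell in WT, and 14 rose and 1 fell in KO. Of all tested genes, 2.24% were called higher and 1.50% lower in WT, and 2.00% and 1.70% in KO. The median log2 fold change of the 30 was 0.48 in WT and 0.34 in KO, against 0.017 and 0.019 over all tested genes. CXCL8, a neutrophil chemokine, rose from 14.4 ± 2.97 to 34.0 ± 2.94 TPM in WT (SD, n = 3; log2 fold change 1.20, limma adjusted p = 0.0016) and from 18.7 ± 1.46 to 31.5 ± 4.04 TPM in KO (0.72, limma adjusted p = 0.023). The collagenase MMP1 rose by 1.14 in WT (limma adjusted p = 2.5e-04) and 0.97 in KO (limma adjusted p = 7.3e-04), and the stromelysin MMP10 by 1.04 (limma adjusted p = 7.7e-05) and 1.22 (limma adjusted p = 3.5e-05). IGFBP3, a carrier of insulin-like growth factors, fell in KO (-1.21, SE 0.23, limma adjusted p = 0.021), with -0.60 in WT (limma adjusted p = 0.21).

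In the same list, 3 factors were higher and 9 lower in KO than in WT without radiation, and 4 higher and 11 lower after it. Of all tested genes, 0.463% were called higher and 1.26% lower without radiation, and 0.927% and 2.66% after it. The median log2 fold changes of the list were -0.20 and -0.26, against -0.021 and -0.017 over all tested genes. The chemokine CCL5 was 8.30 ± 2.02 TPM in unirradiated WT and 0.138 ± 0.0797 in KO (log2 fold change -3.01, limma adjusted p = 1.4e-05). FGF2, a growth factor, was 16.9 ± 1.75 and 2.71 ± 0.204 TPM (-2.27, limma adjusted p = 6.1e-07). MMP1 and MMP10 went the other way, higher in KO by 0.88 (limma adjusted p = 0.0011) and 0.86 (limma adjusted p = 1.4e-04). LIF, IL11 and the 2 metalloproteinases all rose with radiation in WT, and in irradiated KO cells the cytokines were lower and MMP1 (0.71, limma adjusted p = 0.0029) and MMP10 (1.04, limma adjusted p = 2.1e-05) higher than in WT.

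**Figure D4:**
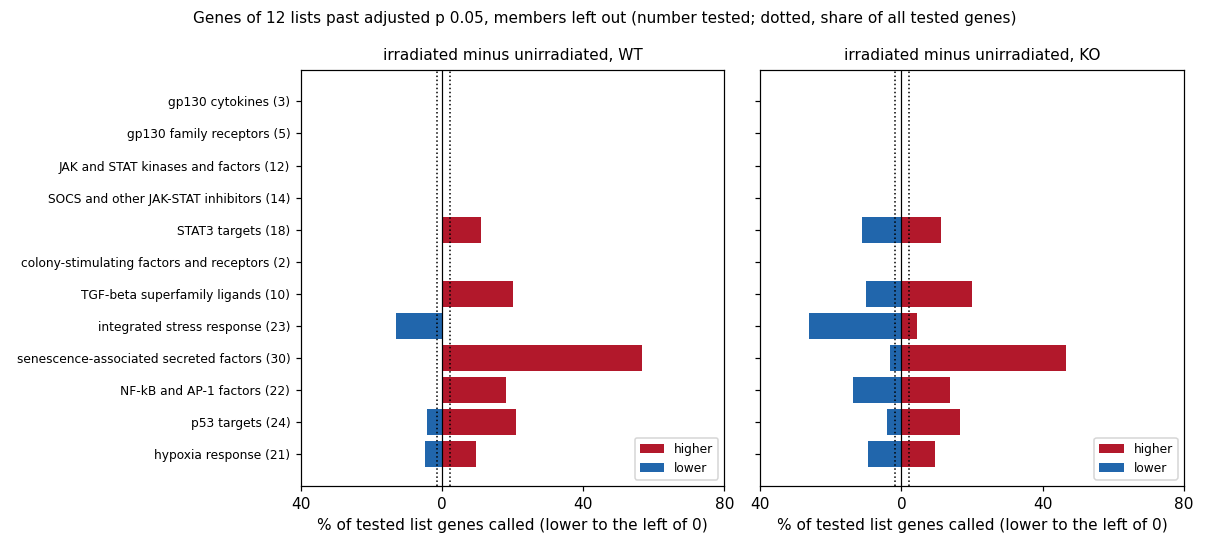
Share (%) of the tested genes of 12 lists called higher (right of 0) or lower (left of 0) after irradiation in WT and KO cells at adjusted p 0.05, with the 10 described genes left out and the number tested in parentheses. Dotted lines are the shares over all tested genes. The list of senescence-associated secreted factors has the most calls, 17 of 30 higher in WT and 14 of 30 in KO.

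Lists of factors known to act upstream of, or alongside, these genes were counted in the same way. They differ in size and were also compiled with earlier results of these data known. Their part in the changes of these genes was not tested. For comparison, 2.24% of all tested genes were called higher and 1.50% lower in WT, and 2.00% and 1.70% in KO. The same shares apply to the radiation counts of the lists that follow. Of 22 NF-kB and AP-1 genes, 4 rose and 0 fell in WT, and 3 rose and 3 fell in KO. The AP-1 subunit FOSL1 rose by 0.76 in WT (limma adjusted p = 0.0014) and 0.50 in KO (limma adjusted p = 0.015), and TNFAIP3, an inhibitor induced by NF-kB, by 0.69 (limma adjusted p = 0.0022) and 0.54 (limma adjusted p = 0.0094). Of 24 p53 targets, 5 rose and 1 fell in WT, and 4 rose and 1 fell in KO. CDKN1A, the cell cycle inhibitor p21, rose by 0.78 in WT (limma adjusted p = 0.0016) and 0.60 in KO (limma adjusted p = 0.0068) and was lower in KO without radiation (-0.70, limma adjusted p = 0.0033). PLK3, a stress kinase, rose by 0.94 (limma adjusted p = 0.015) and 0.88 (limma adjusted p = 0.021).

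The integrated stress response, which can induce GDF15 and STC2, gave more lower than higher calls. Of 23 genes tested besides those, 0 rose and 3 fell in WT, and 1 rose and 6 fell in KO. SLC7A11, the cystine transporter, fell by 0.48 in WT (limma adjusted p = 0.0032) and 0.47 in KO (limma adjusted p = 0.0037), and DDIT4, an inhibitor of mTORC1, fell by 0.50 (limma adjusted p = 0.0016) and 0.67 (limma adjusted p = 3.5e-04). DDIT3, the CHOP factor, rose in KO by 0.51 (limma adjusted p = 0.022), with 0.041 in WT (limma adjusted p = 0.88). Between the lines, 0 were higher in KO and 2 were lower without radiation, and 0 were higher and 4 lower after it. The shares of all tested genes were 0.463% higher and 1.26% lower without radiation, and 0.927% and 2.66% after it. WARS, a tryptophan-tRNA synthetase that interferon also induces, had a log2 fold change of -1.21 in KO without radiation (limma adjusted p = 4.3e-04).

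Of 21 hypoxia response genes, 2 rose and 1 fell in WT, and 2 rose and 2 fell in KO. The mitophagy receptor BNIP3 rose by 0.63 in WT (limma adjusted p = 0.0092) and in KO (limma adjusted p = 0.0094). Of 10 TGF-beta superfamily ligands besides GDF15, 2 rose and 0 fell in WT, and 2 rose and 1 fell in KO. TGFB1 rose by 0.47 in WT (limma adjusted p = 0.0014) and 0.39 in KO (limma adjusted p = 0.0038), and it was lower in KO without radiation (-0.32, limma adjusted p = 0.013). GDF11 rose by 0.40 (limma adjusted p = 0.0067) and 0.29 (limma adjusted p = 0.032), and BMP7 fell in KO by 0.30 (limma adjusted p = 0.028).

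Some genes listed as markers of other cell types moved with irradiation beside these genes. The summed level of 4 endothelial markers was 11.5 to 13.9 TPM in unirradiated and 18.3 to 18.7 TPM in irradiated WT libraries, and 13.0 to 15.9 and 19.9 to 23.9 TPM in KO. CDH5 carried most of it, whereas PECAM1 and KDR stayed under 0.1 TPM, as did PTPRC and CD3E of the leukocyte list. The 6 leukocyte markers summed to 20.1 to 26.0 and 27.9 to 35.0 TPM in WT, mostly from CD68, without overlap, and to 19.5 to 29.02 and 21.8 to 28.98 TPM in KO, with overlap. Their part in the changes of IL6, LIF, STC1 and the others was not tested, and in bulk RNA a change in the share of cells and a change in RNA per cell cannot be told apart.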

How the data were processed

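RNA was extracted from FaDu WT and STING KO cells, selected with oligo-dT and sequenced as 100-base paired ends. The authors deposited TPM values per gene and library, each library summing to 1000000. The submitters' processing notes name hg38, HISAT2, StringTie and DESeq2, without versions. The annotation and strand setting are not given in the sources used here. TPM keeps no read depth, so no counting interval could be computed, and the spread between libraries is the only error.

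Groups were taken from the sample labels. The KO columns carry the name of the KO line, and TMEM173 was checked in each. From the TPM, log2(TPM + 1) of 15973 genes was modelled in R 4.3.3 by limma 3.58.1 (4 group means, all 12 libraries, eBayes with trend). P-values were adjusted over all genes (Benjamini-Hochberg, threshold 0.05), and the code was tested on simulated data. Members below the filter were compared by exact permutation tests. IL6 and STC1 were chosen by their values in these libraries and are given with no test in any contrast. The members and the gene lists, the latter compiled from general knowledge, were chosen with earlier results of these data known, and so were the alternatives, which are described in the closing section.

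Genes named besides the members were their receptors, JAK1, JAK2, TYK2 and STAT3, the 2 largest changes past the threshold in each list (radiation in either line, KO without radiation), the 5 genes most like IL6 and STC1, TMEM173, and neighbours in the ranking by radiation effect. A gene that this rule names is not reported here. CTF1, CNTF, CLCF1, OSM, CSF1, CNTFR, IL27RA and IL31RA were named after their values were seen, as were genes overlapping a member and single markers. Coordinates came from GENCODE 29 on GRCh38 and promoter bases from RefSeq. Figures were drawn with matplotlib 3.10.9.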

Additional observations from a re-analysis of the deposited data

How the results depend on the processing

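Of 1436 values of single-gene log2 fold changes under alternative settings (73 results), 1316 were the same, 104 lost the call, 4 moved and 12 changed sign. The same meant an unchanged direction and side of the threshold. For the radiation effects of IL6 and STC1 it meant a value within a margin set by the SE. Between the lines, this tally classed both genes by the side of the threshold, although no test of them is reported. The 1316 include results not called in the main fit, which had no call to lose. The 4 that moved were IL6 and STC1 after irradiation with a pseudocount of 0.1, 2.05 and 2.23 in WT and 1.02 and 2.10 in KO. Those that changed sign lay near 0. IL6 in unirradiated KO against WT ranged from -0.36 to 0.06 over the fits that left out 1 library. The difference of the LIF radiation effects was -0.0074 with quantile normalization and -0.03 to 0.042 leaving out 1 library. The STC2 radiation effect in KO was -0.014 with median-of-ratios factors, -0.017 with quantile normalization and -0.022 to 0.049 leaving out 1 library. The causes were not tested.

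Counts of the members called moved as follows. KO against WT unirradiated gave 2, 0 with only the 6 libraries compared and 1 to 2 leaving out 1 library. KO against WT irradiated gave 3 with IL6 and STC1 left out, and 2 with a mean TPM of at least 5, which removes IL11. IL11 also lost its call with a pseudocount of 0.1, with no filter and with the replicate number as a block, which left LIF and STC2. In this comparison IL11 kept its call in 2 of the 12 fits that left out 1 library, and LIF and STC2 in all 12. Radiation in WT gave 4, 1 with no filter, 2 with quantile normalization, 2 with only the 6 libraries and 1 to 3 leaving out 1 library. Radiation in KO gave 2, 1 with only the 6 libraries and 1 to 2 leaving out 1 library. Counts over all genes, in the same order, were 276, 573, 597 and 590. With only the 6 libraries compared they were 103, 252, 166 and 195, and leaving out 1 library they ranged over 172 to 292, 313 to 542, 242 to 526 and 268 to 553. For the difference between the lines' radiation effects the count was 3, 7 with no filter, 1 without trend and 1 to 9 leaving out 1 library.

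The replicate numbers are shared by the groups, but 0 of 18 same-numbered pairs had a correlation of deviations over 0.1 (range -0.06 to 0.06), and a library correlated best with its own number in 10 of 36 comparisons. With the replicate block, calls over all genes were 378 for irradiated KO against WT, 315 and 359 for radiation in WT and KO, and 1 for the difference between them. The members called with radiation in WT were then 1, LIF. Depth is unknown for values as low as those of CSF2 and CSF3, and differences there were not detectable.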
